A study of Mus musculus with 2 samples.

Results

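The IL-1 receptor family in mouse ILC2 progenitors was followed through 8 genes, taken by symbol from the 27179 genes measured: Il1rl1 (the IL-33 receptor ST2), Il18r1, Il1r1, Il1rl2, Il1rap, Il18rap, Sigirr and Il1r2. All 8 were found and all 8 were detected, meaning at 1 RPKM or more in both libraries, as were 11013 genes in all. RPKM are reads divided by gene length and by the depth of the library, so levels can be compared between genes.

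Group 2 innate lymphoid cells (ILC2) make type 2 cytokines, and their progenitors were sorted here by flow cytometry from the bone marrow of wild-type C57BL/6 mice at 8 weeks of age. There were 2 libraries of this 1 group, each from a pool of 8 mice, called pool 1 and pool 2 in accession order. No other cell type or treatment was measured, so the values describe levels within these cells and the difference between the pools, which has no replicate check. The sources used here do not give the sorting antibodies, and a receptor used to sort would be high by selection. The files were assigned to pools as deposited, although 0 of 2 value columns are headed with the code of their own sample. Were the headings right, the pools would swap names in all that follows. The library totals, as recovered from steps in the deposited values, were 20216146 reads in pool 1 and 19834586 in pool 2. Values after ± are the SD of both pools (n = 2).

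Receptors of this family work in pairs. A ligand-binding chain captures a cytokine of the IL-1 family and an accessory chain then joins it, which brings the intracellular TIR domains together and recruits the adaptor MyD88, leading to NF-kB activation. ST2 binds IL-33, an alarmin released by damaged epithelial and stromal cells, and is among the best known surface receptors of ILC2. Il1rap encodes the accessory chain shared by the receptors for IL-1, IL-33 and IL-36, and Il18rap the accessory chain of the IL-18 receptor. Il1r2 encodes a decoy that binds IL-1 without signalling, and Sigirr an inhibitory member.

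Of the 8 genes, 6 lie side by side on chromosome 1 and on the same strand, in the order Il1r2, Il1r1, Il1rl2, Il1rl1, Il18r1 and Il18rap, over 467 kb from 40084692 to 40551707 (mm10, RefSeq coordinates). Il1rap lies on chromosome 16 (26581509 to 26730128) and Sigirr on chromosome 7 (141091175 to 141100597). The upstream sequences below are shown because genes in the cluster differed widely in level while sharing the region, and because Gata3, the GATA factor on which ILC2 depend, is abundant in these cells. They are the 250 bases before a RefSeq transcript start (GRCm38.p6, forward strand, 5′ to 3′). Capitals mark 4 spellings of the GATA motif on either strand, namely AGATAA and its variant AGATAG, and also TGATAA together with its variant TGATAG. The windows are chr1:40429320-40429569 for the more upstream of the Il1rl1 starts that had a window, chr1:40515112-40515361 for Il18rap and chr1:40224830-40225079 for Il1r1.
Il1rl1: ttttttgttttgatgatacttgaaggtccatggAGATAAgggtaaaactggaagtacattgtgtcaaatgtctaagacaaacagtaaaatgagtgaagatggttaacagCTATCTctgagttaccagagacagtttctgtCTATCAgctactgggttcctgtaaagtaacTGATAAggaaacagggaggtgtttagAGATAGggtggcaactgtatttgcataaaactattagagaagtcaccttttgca
Il18rap: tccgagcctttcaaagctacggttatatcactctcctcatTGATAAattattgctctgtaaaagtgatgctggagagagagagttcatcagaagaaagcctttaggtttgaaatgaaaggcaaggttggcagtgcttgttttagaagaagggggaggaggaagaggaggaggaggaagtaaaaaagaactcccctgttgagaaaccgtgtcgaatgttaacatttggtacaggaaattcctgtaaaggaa
Il1r1: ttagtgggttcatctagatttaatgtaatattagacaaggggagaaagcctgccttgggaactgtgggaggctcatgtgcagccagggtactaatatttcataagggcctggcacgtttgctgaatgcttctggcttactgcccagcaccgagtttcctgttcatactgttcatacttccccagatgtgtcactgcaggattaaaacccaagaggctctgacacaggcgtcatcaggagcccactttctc
The Il1rl1 window held 5 matches, the Il18rap window 1 and the Il1r1 window 0. Among 32851 such windows of all genes, 26.5% held at least 1 match and 14 (0.0426%) held 5 or more. The cut of 5 is the count of the Il1rl1 window itself, the highest of the family windows. The share above it is therefore a description and no test of rarity. The window of the other Il1rl1 start that had one (chr1:40439379-40439628) overlaps an annotated exon and held 1 match. The annotated starts of the genes Il1rl1 (40404864) and Il1r1 (40222480) lie farther upstream, and no window covered them. Of the 11 windows of the 7 family genes in the table, 4 held a match, the other one being the Il1r2 window. The 3 windows of Il18r1, a gene above Il18rap in mean level, held 0 matches, as did those of Il1r1, Il1rap and Il1rl2. The windows of Il18r1, Il1rap and Il1r2 also overlap annotated exons. The marked stretches are matches of letters and show no binding, and their bearing on level was not tested.

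Il1rl1 was the most abundant gene of the family. It stood at 173 RPKM in pool 1 and 262 RPKM in pool 2 (mean 218 ± 62.4), rank 274 of all genes and above 97.5% of the detected genes. It made up 64.3% of the summed RPKM of the 8 genes in pool 1 and 64.4% in pool 2. Whole reads recovered from the values numbered at least 24425 in pool 1 and 36149 in pool 2. The gene gives rise to a membrane receptor and to a soluble form that traps IL-33, and GENCODE lists 5 coding transcripts with coding lengths of 195 to 1701 bases, so one value per gene cannot separate the forms.

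**Figure D1:**
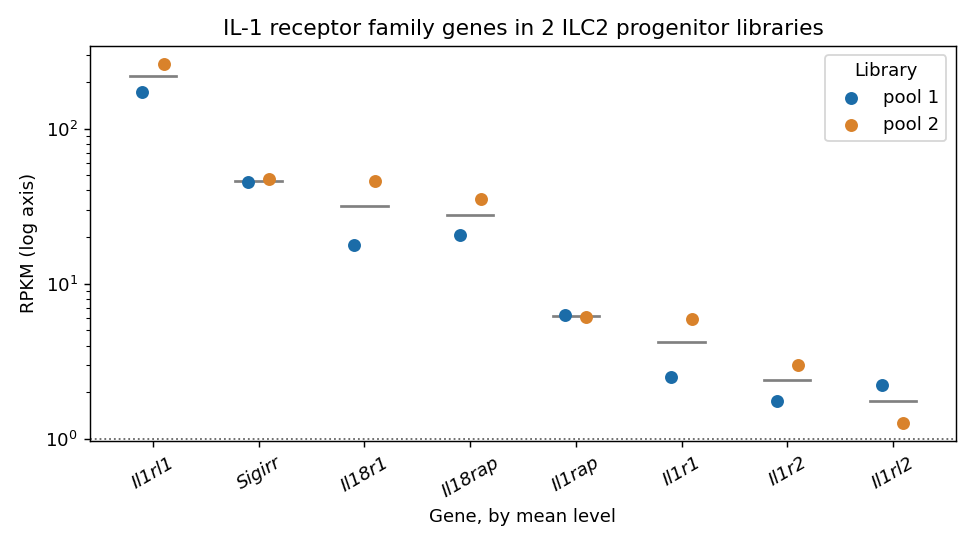
RPKM (log axis) of the 8 IL-1 receptor family genes, ordered by mean, with a point for each pool, a bar for the mean and a dotted line at 1 RPKM. Il1rl1 lies above the other 7 genes in both pools, and Il18r1 and Il1r1 show the widest gaps between the pools.

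The other ligand-binding chains were far lower. Il18r1, which binds IL-18, was at 17.8 RPKM in pool 1 and 45.8 RPKM in pool 2 (31.8 ± 19.8). Il1r1, the signalling receptor for IL-1, was at 2.50 RPKM in pool 1 and 5.95 RPKM in pool 2 (4.22 ± 2.44). Il1rl2, which binds the IL-36 cytokines, was at 2.23 RPKM in pool 1 and 1.27 RPKM in pool 2 (1.75 ± 0.683), the lowest mean of the family, from at least 88 and 49 reads. Within a pool, Il1rl1 exceeded Il18r1 9.74-fold in pool 1 and 5.71-fold in pool 2, and Il1r1 69.5-fold in pool 1 and 44.0-fold in pool 2.

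The accessory chains differed in how they stood to their partners. Il1rap was at 6.29 RPKM in pool 1 and 6.09 RPKM in pool 2 (6.19 ± 0.141), with an antisense gene, Gm20319, overlapping its exons. Because the strand setting of the counting is not given, reads of the pair cannot be told apart. Il1rl1 exceeded Il1rap, the chain it needs for signalling, 27.6-fold in pool 1 and 43.0-fold in pool 2, a log2 ratio of 5.08 ± 0.45. Il18rap was at 20.5 RPKM in pool 1 and 35.2 RPKM in pool 2 (27.9 ± 10.4), close to its partner Il18r1. The ratio of Il18r1 to Il18rap was 0.868 in pool 1 and 1.30 in pool 2, so which of these chains was higher depended on the pool (log2 ratio 0.09 ± 0.41). Il1r1 stood below Il1rap in both pools, at 0.397 and 0.977 times its level in pools 1 and 2.

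Of the inhibitory members, Sigirr was at 45.1 RPKM in pool 1 and 47.3 RPKM in pool 2 (46.2 ± 1.53), the second highest of the family. Il1rl1 exceeded it 3.85-fold in pool 1 and 5.54-fold in pool 2. The decoy Il1r2 was at 1.77 RPKM in pool 1 and 3.0 RPKM in pool 2 (2.39 ± 0.873), from at least 48 and 80 reads. The signalling receptor Il1r1 was above this decoy in both pools, 1.41-fold in pool 1 and 1.98-fold in pool 2.

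In order of mean level the genes ran Il1rl1, Sigirr, Il18r1, Il18rap, Il1rap, Il1r1, Il1r2 and Il1rl2. Of the 7 pairs of neighbours in this order, 3 were apart in every value: Il1rl1 and Sigirr, Il18rap and Il1rap, and Il1rap and Il1r1. The last of these was apart only narrowly, with Il1rap at 6.09 RPKM and Il1r1 at 5.95 RPKM in pool 2. The ranges over the pools overlapped for the other 4 pairs, which thus did not differ beyond their spread between libraries. Within a library, 2 of these 4 pairs kept their order in both pools, Sigirr above Il18r1 and Il1r1 above Il1r2, while Il18r1 and Il18rap, and Il1r2 and Il1rl2, changed places. The median level of the 8 genes, 3.70 as log2(RPKM + 0.1), was beside a median of 3.86 over all detected genes.

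The second description concerns the pools. Ratios are log2 of pool 1 over pool 2 after adding 0.1 RPKM, which shrinks the ratios of low genes, and intervals are exact 95% intervals from the recovered reads, for counting error only. A difference of 1.5-fold or more was found for 6 of the 8 genes. Pool 1 had the higher value in 1 of these and pool 2 in 5. Over all 11013 detected genes, 8.45% were that far apart, with 2.6% toward pool 1 and 5.86% toward pool 2. The share depended on level, with 14.1% apart among genes with a mean under 10 RPKM, where 4 of the 8 genes fall, and 4.8% at 10 RPKM or more. The median log2 ratio of the 8 genes was -0.66, beside -0.04 over all detected genes. These pools are replicates of 1 group, so the differences are between libraries and no test of a condition was possible.

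Il18r1 differed most, with a log2 ratio of -1.36 (interval -1.44 to -1.28), 2.56-fold higher in pool 2. Il1r1 followed at -1.22 (interval -1.47 to -1.04), 2.33-fold higher in pool 2. These were the only members at least 2-fold apart, where 2.56% of detected genes were. Il18rap was at -0.78 (interval -0.89 to -0.67) and Il1r2 at -0.73 (interval -1.31 to -0.23). Il1rl1 was at -0.59 (interval -0.62 to -0.57), 1.51-fold and so just past the threshold, which it missed at -0.55 when pool 2 was rescaled to a median ratio of 1. Il1rl2 ran the other way at 0.77 (interval 0.30 to 1.35), 1.71-fold higher in pool 1. Il1rap, at 0.05 (interval -0.08 to 0.17), and Sigirr, at -0.07 (interval -0.16 to 0.03), were within 1.05-fold, and both are the members outside the chromosome 1 cluster.

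**Figure D2:**
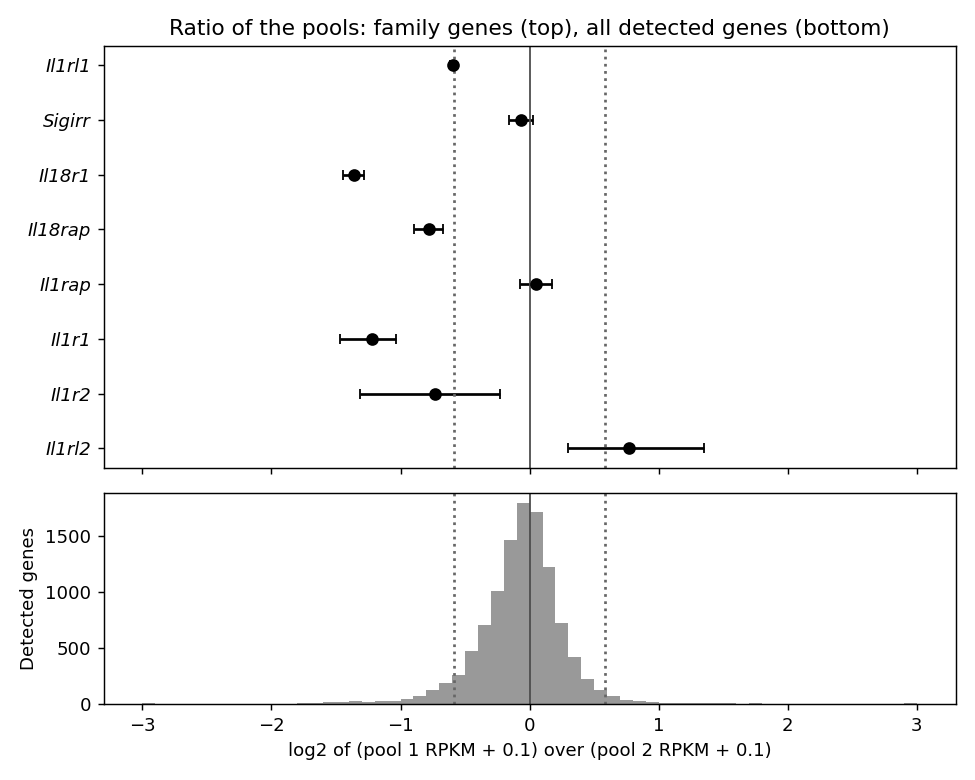
Top, log2 ratio of pool 1 over pool 2 for the 8 genes, with exact 95% counting intervals. Bottom, the number of detected genes at each ratio, with values beyond 3 drawn at 3. Dotted lines mark 1.5-fold. Il18r1 and Il1r1 lie farthest toward pool 2, while Il1rap and Sigirr lie near 0.

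Several of these receptors are also made by other bone marrow cells. Summed markers of such cells were higher in pool 2 for some cell types and not for others. As a background for the marker counts in this and the next paragraph, 2.6% of all detected genes were at least 1.5-fold higher in pool 1. In pool 2, 5.86% were. In bulk RNA, fewer cells of a type and less RNA per cell cannot be told apart. Neutrophils express Il1r2. Of 12 neutrophil and monocyte markers, 10 were detected, of which 0 were at least 1.5-fold higher in pool 1 and 8 in pool 2, with summed levels of 1016 RPKM in pool 1 and 2426 RPKM in pool 2, and none was at 0. Type 17 gamma delta T cells express Il1r1 and Il18r1. Of 12 markers of these cells, a list chosen after values were seen, 10 were detected and all 10 were at least 1.5-fold higher in pool 2, with summed levels of 71.4 RPKM in pool 1 and 301 RPKM in pool 2. Among them, Cd163l1 was at 2.78 RPKM in pool 1 and 43.7 RPKM in pool 2, while Il17a had 0 RPKM in pool 1 and 0.0431 RPKM in pool 2.

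NK cells and ILC1 respond to IL-18. Of their 10 markers, 6 were detected and 3 of these were at least 1.5-fold higher in pool 2, with summed levels of 100.1 RPKM in pool 1 and 128 RPKM in pool 2. Most of these sums was Il2rb, at 70.9 RPKM in pool 1 and 78.3 RPKM in pool 2, which is also on the list of ILC2 cytokine receptors below. Mast cells and basophils carry ST2. Of 10 mast cell markers, 5 were listed at 0 in both pools (Cma1, Tpsb2, Tpsab1, Mcpt4 and Mrgprb1), 4 were detected, of which 1 (Fcer1a, also a basophil marker) was at least 1.5-fold higher in pool 1 and 2 in pool 2, and the sums were 54.1 RPKM in pool 1 and 79.1 RPKM in pool 2. The 8 basophil markers, of which 5 were detected and none was at 0, included 2 detected genes at least 1.5-fold higher in pool 1 (Mcpt8 and Fcer1a) and 0 in pool 2, and summed to 125 RPKM in pool 1 and 120.2 RPKM in pool 2. Of 9 eosinophil markers, 7 were detected and 6 were at least 1.5-fold higher in pool 2, with sums of 60.3 RPKM in pool 1 and 659 RPKM in pool 2. T cells, which can carry ST2 and the IL-18 receptor, had 10 of 11 markers detected and 4 at least 1.5-fold higher in pool 2, with sums of 1241 RPKM in pool 1 and 1448 RPKM in pool 2 and Cd8a at 0. The highest of the T cell markers were Trbc2, at 437 RPKM in pool 1 and 427 RPKM in pool 2, and Lat, at 221 and 239 RPKM. The regulatory T cell factor Foxp3 was at 32.5 RPKM in pool 1 and 27.0 RPKM in pool 2. Which cells made these transcripts cannot be told from bulk RNA. Stromal and endothelial markers, 1 of 8 detected, summed to 89.5 RPKM in pool 1 and 29.4 RPKM in pool 2, and the 9 B and plasma cell markers, 4 of them detected, to 667 RPKM in pool 1 and 453 RPKM in pool 2. The part of these cells in the receptor values was not tested. All 12 ILC2 markers were detected, with nearly equal sums of 3660 RPKM in pool 1 and 3631 RPKM in pool 2. Among them, Id2 was at least 1.5-fold higher in pool 1 and Tcf7 in pool 2. The sums hide opposite shifts of abundant genes, such as Id2 at 710 and 287 RPKM and Ly6a at 1002 and 1319 RPKM in pools 1 and 2.

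Within the chromosome 1 cluster, the level changed most sharply on either side of Il1rl1. Steps between the other neighbours were smaller. By their means, Il1r1 was 1.77-fold above Il1r2, and Il18r1 was 1.14-fold above Il18rap. The neighbours Il1r1 and Il1rl2 had means of 4.22 and 1.75 RPKM. The highest and the lowest mean in the cluster belong to the neighbours Il1rl1 and Il1rl2, 124.3-fold apart by their means. The ratio was 77.7 in pool 1, where Il1r2 was lower still, and 206 in pool 2. The 133 bases between the end of Il1rl1 and the start of Il18r1 separate a gene at 173 and 262 RPKM in pools 1 and 2 from one at 17.8 and 45.8 RPKM. Of the 6 genes in the cluster, 5 were higher in pool 2, as were 57.3% of all detected genes. Among 12 other annotated genes within the cluster or up to 5 to each side, 7 were measured and 2 were detected. The kinase gene Map4k4, before the cluster, was at 33.0 RPKM in pool 1 and 31.1 RPKM in pool 2, and Mfsd9, after it, was at 1.54 RPKM in pool 1 and 1.76 RPKM in pool 2. The sodium-proton exchanger gene Slc9a4, next after Il18rap among the measured genes, was listed at 0 in both pools, and Slc9a2 was at 0.425 RPKM in pool 1 and 0.447 RPKM in pool 2.

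**Figure D3:**
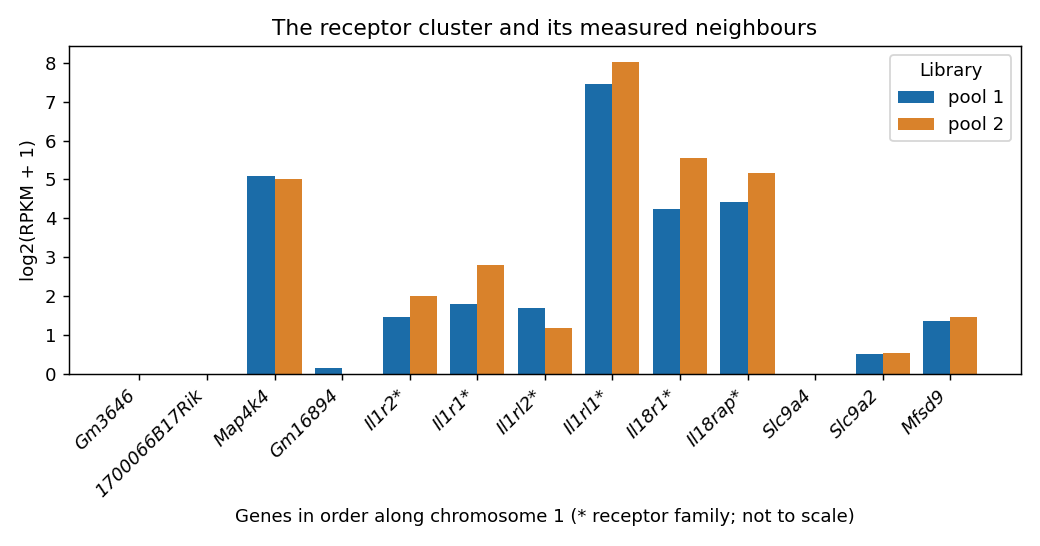
Level as log2(RPKM + 1) of measured genes in their order along chromosome 1, with bars for pool 1 and pool 2 and stars on the receptor family. The 3 highest receptor genes, Il1rl1, Il18r1 and Il18rap, stand next to each other, with Slc9a4 at 0 beside them.

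RNA for the ligands of these receptors was low. Of 11 ligands and soluble inhibitors, 1 was detected: Il18bp, which neutralises IL-18, at 7.52 RPKM in pool 1 and 5.18 RPKM in pool 2. Il18 itself was at 0.971 RPKM in pool 1 and 1.40 RPKM in pool 2, and Il1rn, the IL-1 receptor antagonist, at 0.349 RPKM in pool 1 and 0.693 RPKM in pool 2. Il33 was at 0.0190 RPKM in pool 1 and 0.0775 RPKM in pool 2, and Il1b at 0 in pool 1 and 0.266 RPKM in pool 2. Il1f9, which encodes IL-36 gamma, was at 0.240 RPKM in pool 1 and 0.337 RPKM in pool 2, and the related genes Il1f6, Il1f8, Il1f5 and Il1f10 were listed at 0 in both pools. The receptor relatives Il1rapl1 and Il1rapl2, known from neurons, were also listed at 0 in both.

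Most signalling genes downstream of the receptors were detected, 16 of 18 adaptor and proximal signalling genes. Of these, 1 was at least 1.5-fold apart, where 8.45% of all detected genes were. It was Tifa, a TRAF6-binding adaptor, at 1.34 RPKM in pool 1 and 3.26 RPKM in pool 2. The median log2 ratio of the 16 genes was 0.00, beside -0.04 over all detected genes. The highest were Tab2, which links TRAF6 to the kinase TAK1, at 73.3 RPKM in pool 1 and 71.3 RPKM in pool 2, the ubiquitin ligase gene Peli1 at 65.8 RPKM in pool 1 and 68.1 RPKM in pool 2, and Myd88 at 51.3 RPKM in pool 1 and 50.05 RPKM in pool 2. Peli3 was lowest at 0.306 RPKM in pool 1 and 0.0521 RPKM in pool 2. Irak3, an inhibitory relative of the IRAK kinases, was at 7.76 RPKM in pool 1 and 10.5 RPKM in pool 2. The signalling genes had a median level of 4.17 (log2), beside 3.86 over detected genes.

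Of 11 genes that process IL-1 family ligands, 9 were detected. Casp1, the caspase that matures IL-1 beta and IL-18, was highest at 63.6 RPKM in pool 1 and 73.2 RPKM in pool 2, followed by Casp8 at 56.2 RPKM in pool 1 and 72.0 RPKM in pool 2. The inflammasome sensor Nlrp3 was at 0.320 RPKM in pool 1 and 0.376 RPKM in pool 2. The neutrophil proteases Elane and Prtn3, which can cleave IL-33 or IL-36, were at 45 and 38 RPKM in pool 1 and at 70.6 and 59.3 RPKM in pool 2. They were the only processing genes 1.5-fold apart, where 8.45% of all detected genes were. The mast cell chymase gene Cma1 was listed at 0 in both pools.

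Toll-like receptors share the TIR domain and MyD88. Of 12, 6 were detected, led by Tlr1 at 18.5 RPKM in pool 1 and 19.5 RPKM in pool 2 and Tlr12 at 9.77 RPKM in pool 1 and 13.3 RPKM in pool 2, then Tlr6 at 5.82 RPKM in both, with Tlr5 lowest at 0.0155 RPKM in pool 1 and 0.0158 RPKM in pool 2. The 8 IL-1 receptor family genes summed to 269.6 RPKM in pool 1 and 406 RPKM in pool 2, against 45.8 RPKM in pool 1 and 54.6 RPKM in pool 2 for the toll-like receptors, 5.89 and 7.43 times as much in pools 1 and 2. Other cytokine receptors of ILC2 were all detected (13 of 13), and 1 of them was 1.5-fold apart, as were 8.45% of all detected genes. It was Ifngr1, a chain of the interferon gamma receptor, at 142 RPKM in pool 1 and 248 RPKM in pool 2. The IL-25 receptor gene Il17rb, at 196 RPKM in pool 1 and 202.5 RPKM in pool 2, was above Il1rl1 in pool 1 and below it in pool 2. The shared cytokine receptor chain Il2rg, at 739 RPKM in pool 1 and 662 RPKM in pool 2, and Il7r, at 356 RPKM in pool 1 and 466 RPKM in pool 2, were higher than Il1rl1 in both pools, while Il10ra came last of the 13 at 9.02 RPKM in pool 1 and 12.9 RPKM in pool 2. Crlf2, a chain of the receptor for the alarmin TSLP, was at 41.7 RPKM in pool 1 and 46.3 RPKM in pool 2.

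Genes that ILC2 are known to induce on IL-33 stimulation did not all differ in the same direction between the pools. Of 12, 9 were detected. Of these, 3 were at least 1.5-fold higher in pool 1 and 2 in pool 2, beside 2.6% and 5.86% of all detected genes. Over all 12 the counts were 5 in pool 1 and 2 in pool 2, since Cxcl2, a chemokine gene at 3.43 RPKM in pool 1 and 0.419 RPKM in pool 2, and the cytokine gene Il6, at 1.18 RPKM in pool 1 and 0.510 RPKM in pool 2, were at least 1.5-fold higher in pool 1 but below 1 RPKM in pool 2. Il5 was at 3.32 RPKM in pool 1 and 1.41 RPKM in pool 2, Il13 at 6.28 RPKM in pool 1 and 3.76 RPKM in pool 2, and Areg at 5.90 RPKM in pool 1 and 2.48 RPKM in pool 2, opposite in direction to Il1rl1. The type 2 cytokine gene Il4, at 11.8 RPKM in pool 1 and 12.8 RPKM in pool 2, did not share this direction and was within 1.5-fold. Pdcd1, which encodes PD-1, was at 7.92 RPKM in pool 1 and 15.2 RPKM in pool 2, and the chemokine gene Ccl1 at 1.67 RPKM in pool 1 and 2.80 RPKM in pool 2. Csf2, which encodes GM-CSF, was at 49.5 RPKM in pool 1 and 35.2 RPKM in pool 2, the IL-2 receptor alpha chain gene Il2ra at 156 RPKM in pool 1 and 146 RPKM in pool 2, and the co-stimulatory receptor gene Tnfrsf9 at 12.0 RPKM in pool 1 and 14.7 RPKM in pool 2. Il9 was listed at 0 in both pools.

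**Figure D4:**
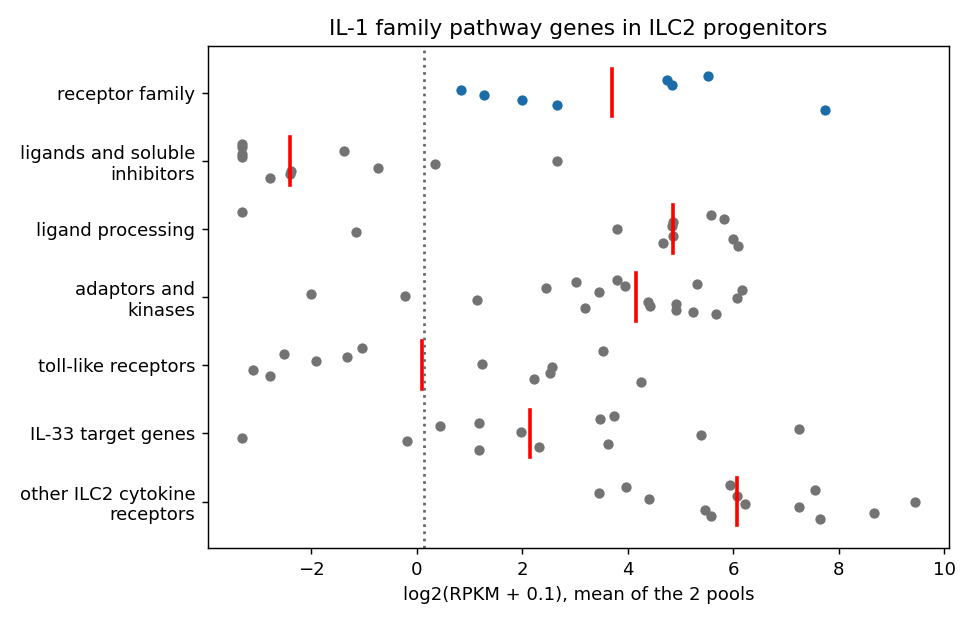
Level of each gene as log2(RPKM + 0.1), averaged over the pools, in the receptor family and 6 related lists. Red lines are list medians, the dotted line is 1 RPKM, and points are spread vertically for legibility. Most ligands lie below the dotted line, while 16 of 18 signalling genes lie above it.

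The 3 genes nearest to Il1rl1 in both pools, by Euclidean distance in log2(RPKM + 0.1) over the 2 libraries, were AI467606 (distance 0.07), Ucp2 (0.21) and Ifi47 (0.22). With 2 libraries, nearness means only a like level in each.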

How the data were processed

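RNA from 2 pools of sorted ILC2 progenitors was sequenced, from 100 ng of total RNA in the Illumina TruSeq preparation per the labels. The authors deposited RPKM per Entrez gene and library. Per the submitters' processing notes, the tools were CASAVA 1.8.2, featureCounts and edgeR (3.8.2 and 3.22.0) and the build was mm10, with no role stated for any of them. The aligner and the strandedness of counting were not given in the sources used here.

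Files were joined on gene ID, with Python 3.11.15, pandas 2.3.3 and scipy 1.17.1. Library totals were searched as whole numbers for which whole gene lengths give whole reads, a step tested on simulated data. At the totals found, 11013 of 11013 detected genes gave whole reads in both libraries, against 4.2% of 1000 genes with totals wrong by 1 part in 1000. Multiples of the totals were settled with GENCODE exon lengths, which themselves gave whole reads for 228 of 10008 genes. Which gene lengths the authors divided by is not stated. The reads are the smallest that fit and so lower bounds, and intervals made from them cover counting error only. Levels were compared as RPKM, ratios as log2(RPKM + 0.1), and genes were called apart at 1.5-fold with no p-value, since there is 1 group. The 8 genes, the lists and the rules were chosen with earlier results of these data known. Named list genes are the 3 highest, the lowest and those 1.5-fold apart whose mean reaches 5 RPKM, with sums in place of names for most marker lists, and others were chosen after their values were seen. Promoter windows and gene coordinates came from RefSeq (GRCm38.p6), cut to 250 bases before the start. A comparison of receptor proteins was not made.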

Additional observations from a re-analysis of the deposited data

How the results depend on the processing

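All 8 genes stayed at 1 RPKM or more when either pool was left out and under both rescalings. The count of genes apart between the pools was 6, where 8.45% of all genes were apart. It was also 6 with both libraries rescaled to equal sums (11.3% of all genes), with a pseudocount of 0.01 (8.77%) and with no filter (20.8%). It was 5 with pool 2 rescaled to a median ratio of 1 (7.9% of all genes, Il1rl1 at -0.55), 4 with a pseudocount of 1 (5.82%), which took Il1r2 to -0.53 and Il1rl2 to 0.51 and left Il1r1 apart at -0.99, 3 of 5 genes tested at 5 RPKM in both libraries, where 4.66% of all genes were apart, and 2 at 2-fold (2.56%). Without division by gene length, log2 ratios in reads were 1.03 for Il18r1 to Il18rap, 2.65 for Il1r1 to Il1r2, 3.44 for Il1rl1 to Il18r1, 6.26 for Il1rl1 to Il1r1 and 4.01 for Il1rl1 to Sigirr, since gene lengths differ and the reads are lower bounds. The ratio of Il18r1 to Il18rap changed sign with 1 pool left out, at -0.20 or 0.38. Of 78 pathway genes, 53 were detected, 56 at 0.5 RPKM and 45 at 5 RPKM. Neighbours in the order of levels were apart for 3 pairs, and for 4 with pool 2 rescaled, an alternative chosen after seeing the data, as was the same order with equal sums. No paired analysis was possible because there is 1 group. Depth limits Il1r2 and Il1rl2 most, at 48 to 88 reads.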
